A study of Homo sapiens with 4 samples.

Results

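The genes described here encode the proteins of the cytosolic ribosome. They were taken by name, as protein-coding genes whose symbol is RPL or RPS with a number (and, where present, A, X, L or L1), together with RPLP0, RPLP1, RPLP2 and RPSA. Of 84 annotated genes that this rule takes, 42 had at least 1 YTHDF1 peak, and these 42 genes held 84 of the 24754 peaks in coding genes. In all, the table listed 26819 peaks in 7550 genes. Pseudogenes of ribosomal protein genes were not members.

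The peaks came from RNA immunoprecipitation sequencing (RIP-seq) in SNU638, an established human gastric cancer cell line. All cells overexpressed YTHDF1, a cytoplasmic reader of RNA that carries N6-methyladenosine, went without serum for 24 h, and were exposed to IFN-γ at 10 ng/ml over the next 24 h. There were 2 IP-YTHDF1 libraries and 2 input libraries. The pull-down used an antibody to the FLAG tag, so it captured the introduced protein, and no library of untreated cells, of cells without the introduced YTHDF1 or of a control antibody was analysed here. Each peak is a 50 bp window that carries a single signal value, with its p-value and q-value, for all libraries together. No value per library was given, so the replicate spread and the depth behind a window are unknown, no test of IP-YTHDF1 against input could be run, and every comparison below is a description of this table. What scale the signal values are on was not given, and the table holds no expression levels with which the identity of the cells could be checked.

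A ribosome consists of a small subunit, which decodes the mRNA, and a large subunit, which joins amino acids and guides the new chain through its exit tunnel. The mRNAs of its proteins are among the most abundant in growing cells. Most of them are short and start with a terminal oligopyrimidine (TOP) tract, a C followed by further C and T bases at the transcription start. Through this tract, mTOR and the RNA-binding protein LARP1 switch their translation on and off with growth signals such as serum.

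Start sites from RefSeq (GRCh38.p14) show this shared feature in genes with and without peaks. A TOP tract was counted where the start base was C and the next 4 bases were each C or T, read on the gene's strand. A start sequence was given for 67 of the 84 genes, and 47 of them (70.1%) had the tract, against 988 of 15843 coding genes (6.24%). The tract was there in 24 of 33 genes with a peak (72.7%) and in 23 of 34 without one (67.6%), so it did not separate these sets. Below are 20 bases before the start and the first 20 of the transcript, with capitals from the start base to the end of the pyrimidine run. RPLP0, RPL36A, RPL21 and RPS18 are shown because they held some of the strongest windows, RPL3, RPL7L1 and RPS29 because they held the most windows, and RPL11, RPS3 and RPS19 as members without a peak.
RPLP0 (chr12:120201092-120201131, minus strand): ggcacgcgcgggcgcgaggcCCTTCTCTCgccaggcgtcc
RPL36A (chrX:101390991-101391030, plus strand): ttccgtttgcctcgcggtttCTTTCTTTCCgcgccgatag
RPL21 (chr13:27251538-27251577, plus strand): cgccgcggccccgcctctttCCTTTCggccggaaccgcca
RPS18 (chr6:33272055-33272094, plus strand): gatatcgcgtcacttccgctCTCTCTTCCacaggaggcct
RPL3 (chr22:39319604-39319643, minus strand): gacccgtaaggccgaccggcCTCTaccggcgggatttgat
RPL7L1 (chr6:42879596-42879635, plus strand): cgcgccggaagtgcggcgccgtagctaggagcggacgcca
RPS29 (chr14:49598691-49598730, minus strand): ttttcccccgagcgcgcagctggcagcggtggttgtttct
RPL11 (chr1:23691786-23691825, plus strand): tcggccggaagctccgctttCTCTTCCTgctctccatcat
RPS3 (chr11:75399498-75399537, plus strand): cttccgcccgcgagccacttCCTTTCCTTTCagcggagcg
RPS19 (chr19:41860235-41860274, plus strand): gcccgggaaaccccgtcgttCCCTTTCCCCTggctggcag
The 3 genes with the most windows had no tract by this definition. The run of RPL3 is 4 bases long, and the entries of RPL7L1 and RPS29 start with another base than C. For RPS29, the entry is the start of the longest annotated transcript, far upstream of its windows.

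Ribosomal protein genes were listed more often than other coding genes, but their strongest windows were mostly below the median of those genes. A peak was listed in 50% of the 84 genes (Wilson 95% interval 39.5 to 60.5%), while 31.8% of all 20056 coding genes had one. This background holds every annotated coding gene, whether or not it is expressed in SNU638. No expression levels were at hand, so the part of expression in this and later shares was not tested. At a q-value of 0.001 or less, 25 of the 84 genes (29.8%, interval 21.0 to 40.2%) remained, against a background of 21.2%, which lies just inside that interval. With a signal value of 2 or more, 17 of the 84 (20.2%) remained, against 22.0%, a share near the background. Among genes with a peak, the strongest window of a ribosomal protein gene had a median signal value of 1.835 (quartiles 1.48 and 2.40), and that of the 6637 other coding genes had 2.23 (1.94 and 2.56). In 14 of 42 genes the strongest window was above this median of the other genes. The strongest is taken from fewer listed windows in ribosomal protein genes (median 1 per gene) than in other coding genes (median 3). Over all windows the medians were closer, at 1.72 and 1.83. With the median window of each gene, the difference (members minus others) was -0.19. Windows with a signal value under 1 were also more common, with 8 of 84 (9.52%) against 2.78% in other coding genes. At the upper end, 6 of 42 genes (14.3%) reached 3, against 8.30% of the other genes. These 6 are too few to read as a difference, and they include RPS29, whose windows all lay over another gene.

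**Figure D1:**
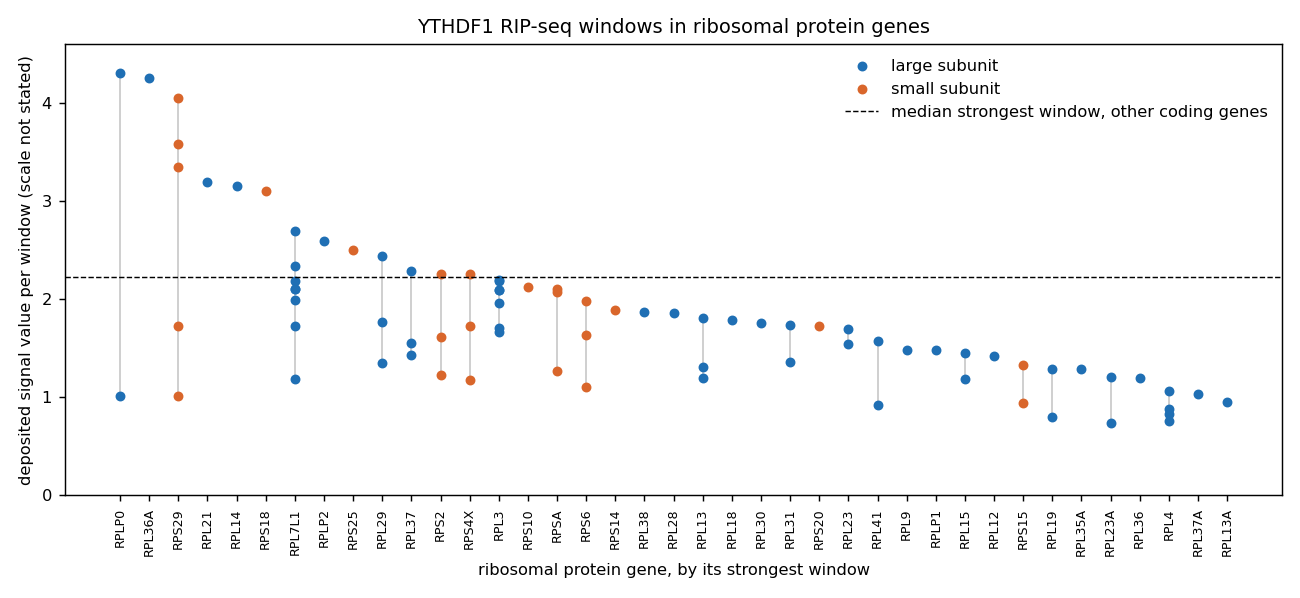
Signal value (scale not stated) of 81 windows in 39 ribosomal protein genes (those reported by name), ordered by the strongest window of the gene. Blue points are large subunit genes, orange points small subunit genes, grey lines join the windows of 1 gene, and the dashed line is the median strongest window of other coding genes (2.23), which 13 of the 39 plotted genes exceed.

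**Figure D2:**
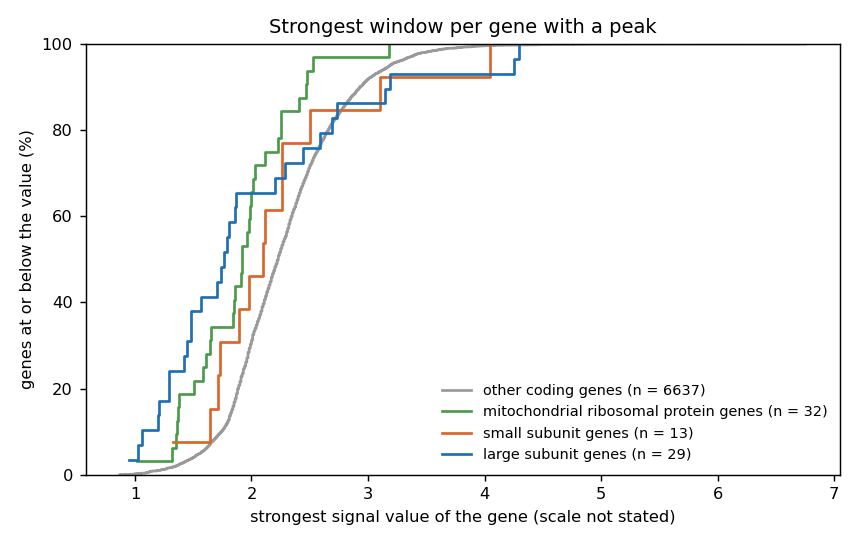
Cumulative share of genes (%) by the signal value of their strongest window, for genes with a peak. The lines of both subunits lie to the left of the other coding genes over most of their course and cross them near the top, where 6 ribosomal protein genes reach 3 or more.

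The large subunit supplied 29 genes with a peak and the small subunit 13. This was 55.8% of 52 large subunit genes (42.3 to 68.4%) and 40.6% of 32 small subunit genes (25.5 to 57.7%), and these intervals overlap. The medians ran the other way, at 1.76 for the large and 2.10 for the small subunit, again with overlapping intervals (1.45 to 2.29 and 1.71 to 2.50). A strongest window of 2 or more was held by 10 of 29 large and 7 of 13 small subunit genes. Both orders turned when windows with a signal value under 2 were left out, as the closing section gives. For the medians, that limit cuts on the compared value itself. At a q-value of 0.001 or less the shares kept their order (a difference of 7.692 percentage points) and the medians nearly met. Genes for mitochondrial ribosomal proteins, which belong to a separate ribosome and rarely carry a TOP tract (6 of 69 start sequences, 8.70%), were listed in 32 of 77 cases (41.6%, 31.2 to 52.7%) with a median strongest window of 1.92, close to that of the cytosolic set.

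All 3 genes of the ribosomal stalk were listed, a group too small to read against the 50% of the set or the 31.8% of all coding genes. RPLP0, the base of this arm that recruits translation factors, had the largest signal value among ribosomal proteins, 4.30 at chr12:120196850-120196899 on the minus strand (q listed as 0), and a second window of 1.01 in the same gene. Its deposited rank was 58, on a count that runs past the 26819 listed peaks (30732 for a window of RPL23A). RPLP0 lay above the strongest window of 99.8% of other coding genes. Its partners on the stalk, the acidic proteins RPLP2 and RPLP1, had 1 window each, of 2.59 and 1.48. RPL12, which sits at the foot of the stalk, had 1 window of 1.42.

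RPL36A, a large subunit protein near the exit site for transfer RNA, came next with 1 window of 4.25 at chrX:101395375-101395424 on the plus strand (q listed as 0). The same place was listed again under the read-through gene RPL36A-HNRNPH2, in a window that shared 37 bp with it and had a value of 1.81. RPS10, a small subunit protein that is ubiquitylated on stalled ribosomes, had 2.12 beside 0.90 for the read-through gene RPS10-NUDT3 over 33 shared bp. In all, another gene on the same strand overlapped 3 windows of the set (3.57%, against 10.0% in other coding genes). Over the whole table, 1376 pairs of same-strand windows from different genes shared 25 bp or more, their values differed by a median of 0.21, and 5.01% differed by 1 or more. Both pairs above differed by more than 1, so the same place was listed with unlike values under different genes.

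The third largest value belonged to RPS29, a zinc-binding protein of the small subunit head, but its windows all lay over another gene. They touched each other and covered 250 bp, with values of 4.05, 3.35, 3.58, 1.73 and 1.01 from chr14:49586585 to chr14:49586834 on the minus strand. RN7SL1, the gene of the RNA of the signal recognition particle, lies there on the plus strand (chr14:49586580-49586878, 299 bp), inside the long RefSeq span of RPS29. The RPS29 windows covered bases 6 to 255 of it. RN7SL1 itself was listed with 1 window on its own strand, of 1.43 (q = 0.0239, 6 windows tested), which covered its bases 2 to 51. The strongest RPS29 window and the RN7SL1 window thus shared 46 bp on opposite strands. The libraries were strand-specific per the labels, but the strand setting of the peak calling is not given in the sources used here. Whether the reads of these windows came from the RPS29 strand or from RN7SL1 RNA cannot be told apart in this table.

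**Figure D3:**
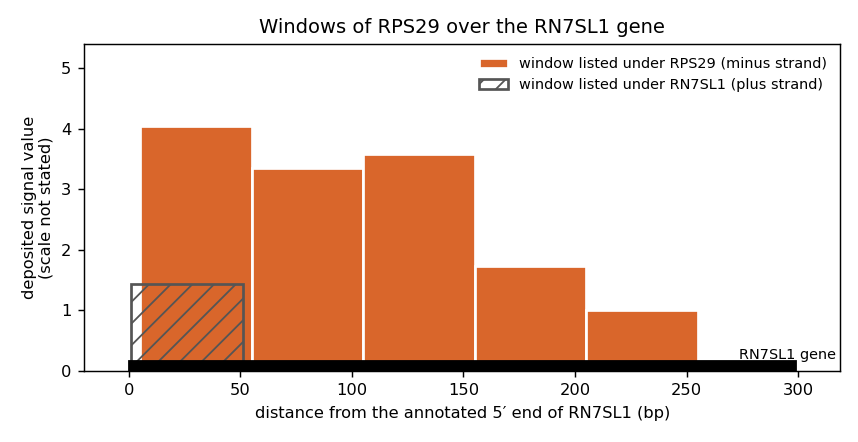
Signal values (scale not stated) of the 5 RPS29 windows (orange, minus strand) and the 1 RN7SL1 window (hatched, plus strand) against distance in bp from the annotated 5′ end of RN7SL1. Bar widths are the 50 bp windows, the black strip is the 299 bp RN7SL1 gene, and the RPS29 values are largest over its first 155 bp.

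Further small RNA genes lay under other member windows. Introns of ribosomal protein genes are a common home of small nucleolar RNAs, which guide the modification of ribosomal RNA, and 29 of the 84 genes had such a gene inside their span, 60 in all. Only 2 of these 60 were touched by a window: SNORD139 by neighbouring windows of RPL3 (1.67 and 1.96) and SNORA21 by a window of RPL23 (1.70). With RPS29 this made 8 of 84 windows over a small RNA gene on either strand (9.52%), against 27 of 24670 (0.109%) in other coding genes. The 8 belong to RPS29, RPL3 and RPL23 alone, and those of RPS29 and of RPL3 touch each other, so they are not independent. A peak was listed in 17 of the 29 host genes (58.6%) and in 25 of the 55 others (45.5%), with overlapping intervals (40.7 to 74.5% and 33.0 to 58.5%).

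RPL21, RPL14 and RPS18 followed with 1 window each. RPL21, of the large subunit, had 3.19 at chr13:27256210-27256259 on the plus strand (q = 0.000509), the only listed window of just 3 tested. RPL14, also of the large subunit, had 3.15 at chr3:40461443-40461492 on the plus strand (q = 3.42e-07). RPS18, a protein of the small subunit head beside the bound transfer RNA, had 3.10 at chr6:33275976-33276025 on the plus strand (q = 2.25e-07). All 3 starts carry a TOP tract, as do those of RPLP0 and RPL36A. After them the values fell below 3.

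RPL7L1 and RPL3 had more windows than any other member, and strongest values of 2.69 and 2.20. RPL7L1, a nucleolar relative of RPL7, was the only one of 7 paralogues of ribosomal proteins with a peak. It had 8 windows between chr6:42880967 and chr6:42886566 on the plus strand, of 2.10, 2.10, 2.34, 1.19, 2.18, 1.99, 2.69 and 1.73 from 5′ to 3′, in 4 separate runs. RPL3, a core protein beside the peptidyl transferase centre, had 7 windows between chr22:39313233 and chr22:39319582 on the minus strand. From 5′ to 3′ they held 1.71, 2.09, 2.09, 2.18, 1.96, 1.67 and 2.20. In both genes the windows ranged over much of the gene, and no single one stood out. The table lists at most 9 windows for a gene, a ceiling reached by 854 other coding genes (12.9%) and by no ribosomal protein gene. A single window was listed in 23 of 42 members (54.8%), against 28.8% of other coding genes and 17 of 32 mitochondrial ribosomal protein genes (53.1%).

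Among genes with a peak, fewer windows were tested in these short genes, and among those with at most 8 peaks a larger part was listed. The number tested could be computed from the q-values and p-values in 40 of the 42 genes. It had a median of 13.5 per gene (3 to 61), against 35 in other coding genes. Summed over genes with at most 8 peaks, 82 of 705 tested windows were listed (11.6%), against 16952 of 220118 (7.70%). This limit left out 854 other coding genes at the ceiling of 9 windows but no ribosomal protein gene. The share of the other genes thus lacks those with the most listed windows, and the effect of this was not tested. Genes without a peak have no number tested, so every gene in these sums adds at least 1 listed window. That weighs more where few windows were tested, and its part in these shares was not tested either. Large and small subunit genes gave 11.1% and 13.1%, and the mitochondrial set gave 11.0%. RPL28, with 1 of 49 windows listed, was at the low end. Restricting the other genes to the range of tested windows seen in the members left the difference in median strongest value at -0.365, beside -0.395 for all of them. That range is wide and keeps most other genes, whose quartiles of tested windows are 21 and 55. It does not match the number of tested windows, so its part in the difference was not tested.

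**Figure D4:**
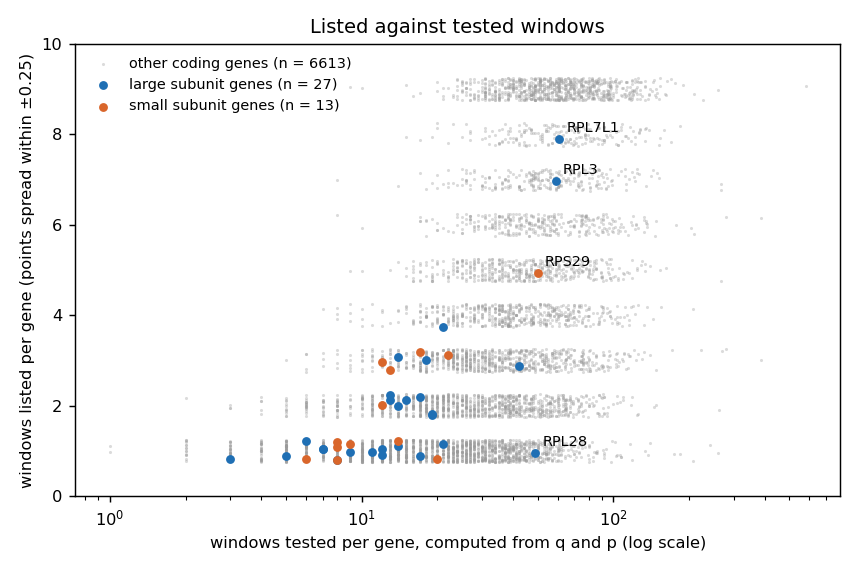
Windows listed against windows tested per gene (log scale) for 27 large subunit genes, 13 small subunit genes and 6613 other coding genes, each with points spread by up to 0.25 so that they can be seen. Most ribosomal protein genes lie at the left with 1 to 3 listed windows, and RPL7L1, RPL3, RPS29 and RPL28 lie apart at 49 to 61 tested windows.

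Listed windows of ribosomal protein genes lay less often in the first 20% of the gene span than those of other genes. Of 84 windows, 21 (25%) were in the first 20% of the gene's RefSeq span, introns included, against 41.2% of windows in other coding genes. The last 20% held 18 (21.4%, against 19.6%). Span lengths differ between the sets, and many windows come from the same few genes, such as RPL7L1, RPL3 and RPS29. The part of either in these shares was not tested. Within 500 bp of the 3′ end there were 15 windows (17.9%, against 1.94%), but the median span of the members was 4905 bp and that of the other genes 31720 bp, so 500 bp is a larger part of these genes. Among them were windows of RPLP0, with the centre of the window 175.5 bp from the 3′ end, RPL21 (333.5 bp) and RPLP2 (285.5 bp). At the other end, windows of RPL12 and RPL3 started 32 and 41 bases after the transcription start, and the window of RPS14, a protein at the channel through which the mRNA leaves, started 154 bases after it. No exon annotation was used here, so a window was not assigned to coding sequence, untranslated region or intron.

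**Figure D5:**
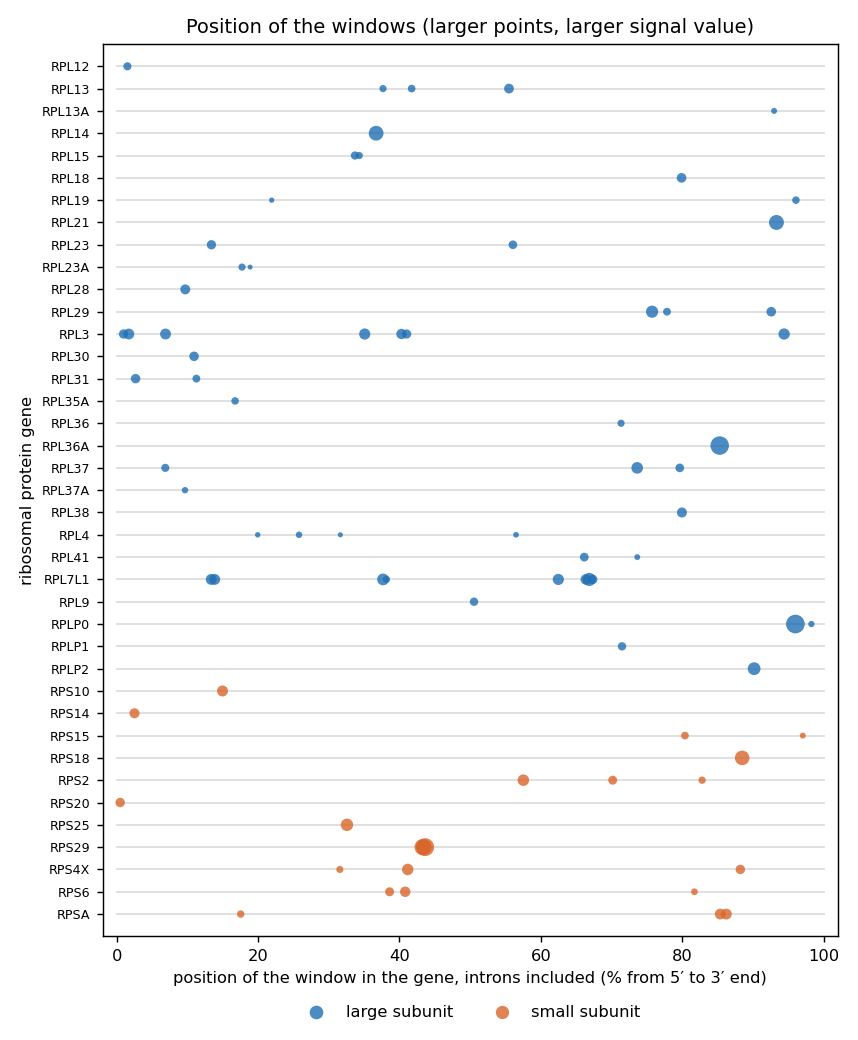
Position of the 81 windows of 39 genes reported by name, in percent of the RefSeq span from the 5′ to the 3′ end with introns included. Each row is 1 gene, and point area grows with the signal value. RPLP0, RPL21, RPL36A and RPS18 have their large points in the last 20%, the windows of RPL7L1 and RPL3 are spread out, and the 5 RPS29 windows fall on nearly 1 place.

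The remaining large subunit genes can be read along the path of the new protein. Beside the peptidyl transferase centre, 1 of 3 genes was listed (RPL3, not RPL8 or RPL10). In the tunnel wall it was also 1 of 3, RPL4, whose 4 windows were among the weakest of the set (1.06, 0.88, 0.83 and 0.76), and RPL17 and RPL39 had none. Around the tunnel exit, 3 of 5 were listed, with 2 windows each and strongest values of 1.74 in RPL31, 1.29 in RPL19 and 1.21 in RPL23A, and none in RPL26 or RPL35. RPL5 and RPL11, which carry the 5S ribosomal RNA and hold back the p53 ligase MDM2 when ribosome assembly fails, had no peak. The smallest strongest value of all was in RPL13A, the protein that leaves the ribosome in IFN-γ-treated myeloid cells and takes part in silencing inflammatory mRNAs, with 1 window of 0.95 at chr19:49491955-49492004 on the plus strand (q = 0.00234).

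Other large subunit genes with 1 window each were RPL38 (1.87), RPL28 (1.86), RPL18 (1.79), RPL30 (1.76), RPL9 (1.48), RPL35A (1.29), RPL36 (1.20) and RPL37A (1.03). With 2 windows each, RPL23, RPL41 and RPL15 had strongest values of 1.70, 1.57 and 1.45. With 3 windows each, RPL29, RPL37 and RPL13 had 2.44, 2.29 and 1.81. Of these genes, only RPL29 and RPL37 had a strongest window above the median of other coding genes. No peak was listed in RPL6, RPL7, RPL7A, RPL10A, RPL22, RPL24, RPL27, RPL27A, RPL32 or RPL34, nor in the paralogues RPL3L, RPL10L, RPL22L1, RPL26L1 and RPL39L.

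In the small subunit the genes were ordered along the mRNA channel. At its entry, RPS2 had 3 windows with a strongest value of 2.26 and RPS3 had none. In the decoding site, RPS15 had 2 windows (1.33 and 0.94) and RPS23 had none. At the exit of the channel, RPS14 had 1 window of 1.89 while RPS26 and RPS28 had none. RPSA, which is also known as a laminin receptor, had 3 windows (2.10, 2.07 and 1.27), and its neighbour RPS21 had none. Of the 4 proteins that are ubiquitylated when ribosomes stall, 3 were listed (50% in the set and 31.8% of all coding genes), with 2.26 in RPS2, 2.12 in RPS10 and 1.73 in RPS20, and RPS3 was the exception.

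RPS6, the substrate of the S6 kinases that act in growth signalling, had 3 windows of 1.98, 1.63 and 1.10. RPS25, which many viral mRNAs need for internal initiation, had 1 window of 2.50. RPS4X, the X-linked gene of a small subunit protein, had 3 windows (2.26, 1.73 and 1.18). No peak was listed in RPS3A, RPS7, RPS9, RPS12, RPS13, RPS15A, RPS16, RPS19, RPS24, RPS27 or RPS27A, nor in the paralogue RPS27L. RPS19, the gene most often mutated in Diamond-Blackfan anaemia, was thus among the members without a peak although its start carries a long TOP tract. A missing peak says only that no window of the gene is in the table, since windows that did not pass are not listed.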

How the data were processed

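RIP-seq was done in 2 IP-YTHDF1 and 2 input libraries of SNU638 cells, with rRNA-depleted strand-specific kits per the labels. The submitters' processing notes name STAR 2.7.3a and GRCh38. The peak caller and the treatment of reads with several matches are not given in the sources used here. The authors deposited 1 table of 50 bp peaks with a signal value and a rank, each treated here as a score because no scale is stated, and with a p-value and a q-value per peak. There were 0 unused columns of single libraries. Of 26820 rows, 1 exact repeat was dropped. A p-value listed as 0 (6 member windows) was kept as listed.

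The members, gene lists, roles and comparisons were chosen with earlier results of these data known, so no test over members was run. Genes were matched by symbol to RefSeq GRCh38.p14 (6370 of 6674 coding symbols, 95.4%), which supplied the background of 20056 coding genes, the spans and the start sequences. Positions are counted from 1. The q-values behave as Benjamini-Hochberg adjusted within each gene, and the number of tested windows was computed as q times the count of listed windows over p at the largest listed p-value. This was tested on simulated data. Shares have Wilson 95% intervals and medians have 95% order-statistic intervals over genes. A member was named with its number of peaks (some genes are not reported here by name, but are in all counts), and window by window for the 6 with the largest strongest value, those with 5 or more peaks, listed paralogues and the one with the smallest strongest value. Alternatives were a q-value of 0.001, a p-value of 0.001, a signal value of 2, windows free of other genes, canonical genes alone, joined windows, median windows and other comparison genes. The p-value limit and the settings without RPS29, without small RNA genes and with the strongest window alone were chosen after seeing the data. Tables were handled in pandas 2.3.3 under Python 3.11.15, with NumPy 2.4.6, intervals came from SciPy 1.17.1, and plots from matplotlib 3.10.9.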

Additional observations from a re-analysis of the deposited data

How the results depend on the processing

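Limiting peaks to a q-value of 0.001 or less left 29.76% of the genes with a peak, 49 peaks and a median strongest signal value of 2.26 (50%, 84 and 1.835 for the whole table). Limiting them to a signal value of 2 or more left 20.24%, 27 peaks and 2.59. Under the latter limit, large minus small subunit turned to -2.644 percentage points (15.14 in the whole table) and 0.45 in median strongest value (-0.34), members minus other coding genes turned to -1.808 points (18.32) and 0.18 (-0.395), and the last 20% of the span held 33.33% of windows (21.43%). Medians under the signal limit compare only genes that passed a cut on the same value, so their turned signs are not read further. At the q-value limit, large minus small in median value was 0.03, and members minus others was -0.16. With mitochondrial ribosomal protein genes as the comparison, the difference in median strongest value shrank to -0.085. The 47 other values, among them those without RPS29 and without windows over small RNA genes, stayed within a tolerance of the whole-table value. For counts of peaks this was within 1.5 times of it. Otherwise the tolerance came from the width of the interval of a single share or median. Differences had no interval of their own, and that of a single group was used for them. Among the 47, 0.03 was the only value with another sign. No paired analysis was possible because no value belongs to a single library, so leaving out a replicate and the replicate block were not run, nor were exon positions. Intervals cover the count of genes and not the spread between libraries.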

Other observations

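Of ribosomal proteins that the naming rule leaves out, RACK1, the scaffold on the small subunit head, had 2 peaks with a strongest signal value of 2.00, and FAU and RPL36AL had none. Other mRNAs known to carry a TOP tract, mainly of translation factors, were listed in 11 of 16 cases (68.75%, 44.4 to 85.8%, beside 31.8% of all coding genes), with a median strongest value of 1.97 and 27 peaks. EEF1D, a subunit of the elongation factor that loads transfer RNA, had 9 peaks (strongest 2.42), HNRNPA1, a splicing regulator, reached 2.89, and NPM1, a nucleolar chaperone, reached 2.45. EEF1A1, PABPC1, NAP1L1, EIF3E and EIF3H had none.

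Genes whose products assemble, regulate or mark ribosomal proteins were listed in 10 of 15 cases (66.7%, 41.7 to 84.8%, beside 31.8% of all coding genes), with 51 peaks and a median strongest value of 2.365. LARP1, which binds TOP mRNAs, had 9 peaks with a strongest value of 2.40, and MDM2, the ligase held back by RPL5 and RPL11, had 9 with 2.52. USP10 and G3BP1, which oppose the ubiquitylation of stalled small subunits, had 9 and 8 peaks with 2.34 and 2.50, and the ligase ZNF598 had 3 with 2.39. The RPL3 chaperone GRWD1 had 5 peaks with 2.20 and the RPL23 chaperone BCCIP 1 with 2.49, while HEATR3, TSR2, LTV1, PDCD2L and OTUD3 had none. PDCD2, AAMP and RNF10 had strongest values of 1.75, 1.51 and 1.92.

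Pseudogenes of ribosomal protein genes held 76 peaks in 47 genes, with strongest values of 0.89 to 4.87 and a median of 2.17. Of these 47, 31 belonged to 14 parent genes with a peak and 16 to 11 parent genes without one. The highest was RPL7AP6, whose parent RPL7A had no peak. Reads of a parent gene and its near-identical copies may be split between them, the handling of such reads is not given in the sources used here, and its part in these values was not tested. Chosen after values were seen, 7 of 9 genes named as RPS6 kinases had a peak (77.8%, 45.3 to 93.7%, beside 31.8% of all coding genes), led by RPS6KA2 at 3.18 and RPS6KC1 at 3.08. Also chosen then, EPRS1 and GAPDH, which join RPL13A in silencing inflammatory mRNAs, had strongest values of 3.03 and 1.23. A further partner looked up with them had no peak, and the group is too small to read against the 31.8%.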
